A study of Mus musculus with 82 samples.

Results

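Laser-captured plasma cells from inflammatory oil granulomata were compared with whole sections of such granulomata at day 7 after oil injection, in study 1 of a series of 2 independent cohorts. All mice were BALB/c.iMycEμ animals at least 8 weeks of age that received pristane oil into the peritoneum, and no group without pristane or without the transgene was analysed here. BALB/c.iMycEμ mice carry a Myc gene inserted into the immunoglobulin heavy chain locus, which drives Myc in the B lineage, and pristane is a mineral oil that provokes granulomata in which plasma cell tumors arise. The captured group held cells stained with methyl green pyronin, a dye that marks cells rich in RNA, which the labels call nascent tumor cells. The reference was undissected granuloma tissue, which holds plasma cells as well. Members were chosen by their labels and not by any measured value. They were the 8 arrays of day 7 of study 1 out of 82 arrays in the series, of which 5 arrays were captured cells and 3 were whole tissue. Arrays that share a specimen number in their title were averaged, which left 4 captured specimens (numbered 3, 5, 8 and 003) and only 2 specimens of whole tissue (numbered 1 and 3). Number 3 occurred in both groups. The labels do not say that specimens were separate animals, so the p-values measure a spread between specimens and not between animals. That spread was pooled over all 19 groups of study, day and tissue in the series, since 2 whole specimens give almost none of their own.

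Plasma cells are the antibody-secreting end stage of the B cell lineage. Their identity is set by the transcription factors Prdm1, Irf4 and Xbp1, which switch off B cell genes and expand the endoplasmic reticulum for immunoglobulin synthesis. Myc, a transcription factor that plasma cells normally silence, raises ribosome production, nucleotide synthesis and cell division where it stays active. The granuloma around these cells is built by macrophages, neutrophils, fibroblasts and vessels on the fat and mesothelium of the peritoneal cavity.

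Values are given on a log2 scale after quantile normalization over all 82 arrays, so that 1 unit is a 2-fold change, and specimens are listed in the order 3, 5, 8 and 003 for captured cells and 1 and 3 for whole granuloma. The 8 arrays fell apart by tissue: Pearson correlations over genes were 0.961 to 0.987 among captured arrays and 0.974 to 0.996 among whole granuloma arrays, and 0.900 to 0.935 between the tissues. Before this normalization the medians of the deposited columns were 4.97 to 5.05 in captured cells and 5.76 to 5.82 in whole granuloma. On the deposited values the median difference of all genes was -0.61, so directions are relative to that shift. The log2 difference between 3′ and 5′ probe sets of control transcripts, a measure of how far the RNA copies were shortened, was 4.50 ± 0.56 on captured arrays (SD, n = 5 arrays) and 3.57 ± 0.20 on whole granuloma arrays (SD, n = 3 arrays). Captured array 003, at 3.56, lay within the whole granuloma range of 3.34 to 3.74, and the other captured arrays lay at 4.49 to 4.99. Apart from array 003 the measure moved with tissue. Its part in the results was not tested beyond a fit that carries it as a covariate.

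The labels do not say whether captured specimen 5 is a single animal, and its 2 arrays were unlike. The arrays titled 5-7 and 5-1 share specimen number 5, and they carried opposite sex-linked transcripts: Eif2s3y, a Y-linked gene, was at 8.33 on array 5-7 and 3.01 on array 5-1, and Xist, the noncoding RNA of the inactive X, was at 5.53 and 12.05 on the same arrays. The other 6 arrays of both tissues had high Xist and low Eif2s3y. B cell genes also separated the 2 arrays. All 15 tested B cell genes were lower on array 5-7 than on array 5-1, 13 of them by more than 2-fold, against 3.21% of all genes tested. Ms4a1, which encodes CD20, was at 8.66 on array 5-7 and 10.98 on array 5-1, and Cd22, a sialic acid receptor of B cells, at 7.48 and 10.58. Class II antigen presentation genes went the same way, with 7 of 11 lower by more than 2-fold on array 5-7. Arg1, the arginase of alternatively activated macrophages, ran the other way, at 9.94 on array 5-7 and 5.35 on array 5-1. Macrophage genes did not all follow Arg1. Of 29, 8 were more than 2-fold higher on array 5-7 and 2 more than 2-fold lower, against 3.58% and 3.21% of all genes tested. The median difference of that list was 0.57. Retnla, another gene of alternatively activated macrophages, was at 5.54 on array 5-7 and 8.20 on array 5-1. Myc target, cell cycle and mitochondrial ribosomal genes hardly separated these arrays, with median differences of 0.11, -0.02 and -0.01. Both arrays were kept in the average of specimen 5, which may therefore mix 2 animals.

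**Figure D1:**
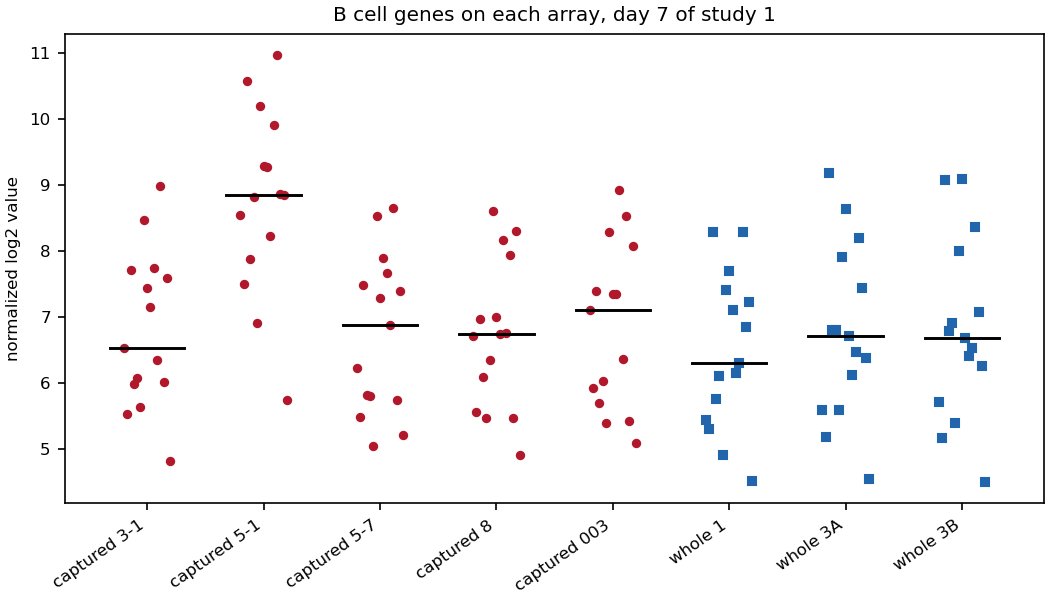
Normalized log2 values of 15 B cell genes on each of the 8 arrays (captured arrays as red circles, whole granuloma arrays as blue squares, the line marks the median). The median on captured array 5-1 was 8.85, while the medians of the other 4 captured arrays ran between 6.53 and 7.11 and those of the 3 whole granuloma arrays between 6.30 and 6.70.

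The comparison asks which transcripts set early plasma cells apart from the tissue they grow in. Of 8592 genes tested, 1668 were higher in captured cells and 1651 were lower at an adjusted p below 0.05 (19.4% and 19.2% of genes tested, 38.6% in all), and 967 and 1259 of these differed by more than 2-fold. The specimen averages of the groups did not overlap for 59.1% of all genes tested, with captured cells above for 31.5% and below for 27.6%. Whole specimen 3 weighed most on these counts: without it 865 genes were higher and 841 lower, and without whole specimen 1 the counts were 1035 and 1200, with the single remaining specimen assumed to vary like the other groups. Counts of list members given below for fits without a whole specimen are to be read beside these totals of all genes. On the deposited values 381 genes were higher and 3902 lower. With captured arrays 5-7 and 5-1 taken as 2 specimens, 1755 were higher and 1733 lower.

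Genes of fat and smooth muscle were among the largest decreases. Amy1, an amylase, was at 3.86, 3.56, 3.25 and 3.78 in captured cells and at 9.58 and 8.89 in whole granuloma, a 48.4-fold decrease (log2 difference -5.60, SE 0.86, adjusted p = 5.71e-06). All captured specimens lay below 4.09, the 25th percentile of the scale, where the arrays barely resolve differences, and the probe set of Amy1 may share signal with near-identical amylase genes. Ces1d, a carboxylesterase that hydrolyses stored fat, was at 4.27, 4.55, 4.52 and 3.53 in captured cells and 9.36 and 9.64 in whole granuloma, 38.9-fold lower (adjusted p = 1.5e-07). Thrsp, a regulator of fatty acid synthesis, Scd1, a fatty acid desaturase, Me1, the malic enzyme that supplies NADPH for lipogenesis, and Plin4, a coat protein of lipid droplets, fell by 4.84, 4.78, 4.67 and 4.38. Actg2, Myh11 and Tagln of smooth muscle fell by 4.83, 4.69 and 4.53. Chpt1, an enzyme of phosphatidylcholine synthesis, fell by 4.70, Mmd by 4.65 and the growth factor Fgf1 by 4.34. Actg2 and Thrsp did not pass the threshold without whole specimen 3, while the other 10 of the 12 largest decreases passed in each of the 6 fits that left out a specimen.

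Genes of RNA processing, mitochondria and DNA replication were among the largest increases. Rab26os, an opposite-strand noncoding transcript of the Rab26 locus, was at 8.39, 8.21, 8.90 and 8.19 in captured cells and 4.60 and 4.68 in whole granuloma, 13.8-fold higher (log2 difference 3.78, SE 0.43, adjusted p = 5.39e-08). Alyref, an adaptor that hands messenger RNA to the export machinery, was at 8.83, 8.89, 9.28 and 8.97 in captured cells and 6.50 and 5.64 in whole granuloma, 7.62-fold higher (adjusted p = 6.87e-08). In both genes the groups lay more than 2 units apart. Snrnp40, a protein of the U5 splicing particle, rose by 2.71, Rfc4, a subunit of the clamp loader of DNA replication, by 2.64, Polr3k, a subunit of RNA polymerase III, by 2.58, and Pet100, an assembly factor of cytochrome c oxidase, by 2.58. Eny2, shared by a histone deubiquitinase and an mRNA export complex, rose by 2.81 on the probe set used, while another of its probe sets was called in the opposite direction (-0.88). The remaining leading genes were Mrpl47 (3.02), Zcchc10 (2.76), 2010204K13Rik (2.59), Bcl2l15 (2.52) and Mrpl33 (2.50). All 12 passed in each of the 6 fits that left out a specimen and with the control difference as a covariate.

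**Figure D2:**
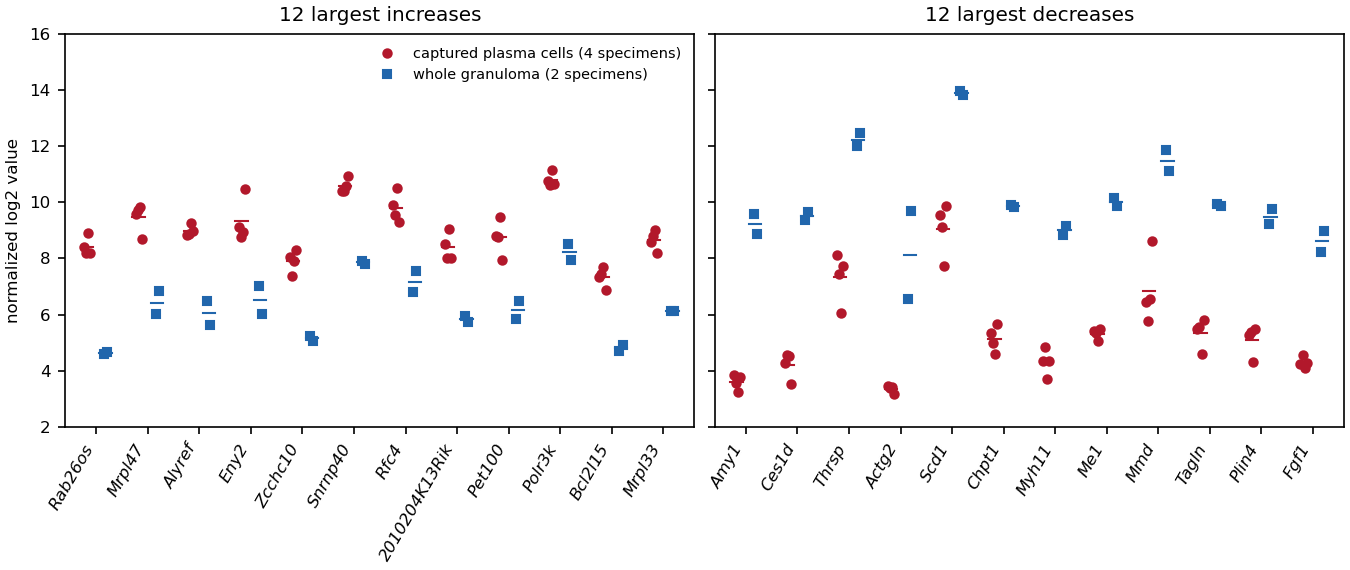
Normalized log2 values of the 12 largest increases and 12 largest decreases in captured plasma cells (red circles, 4 specimens) and whole granuloma (blue squares, 2 specimens), with lines at the means. No gene overlaps between the groups, which was a condition for being shown. The 2 whole specimens lie furthest apart for Actg2, at 6.58 and 9.69.

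Prdm1, Irf4 and Xbp1 did not pass the test between captured cells and whole granuloma. Of 19 plasma cell genes tested, 4 were higher in captured cells, against 19.4% of all genes, and none was lower; the list median was 0.54 against 0.05 over all genes. Jchain, the joining chain of secreted IgM and IgA, was at 12.97, 13.08, 13.04 and 13.11 in captured cells and 12.69 and 12.51 in whole granuloma, a difference of 0.45 that did not pass (SE 0.31, adjusted p = 0.254). Every captured specimen was above both whole specimens, and the difference passed with each array centred on its median (1.36, adjusted p = 0.00808). Xbp1, the transcription factor of the secretory program, was at 12.03, 11.82, 11.90 and 12.23 in captured cells and 11.72 and 12.11 in whole granuloma (0.07, SE 0.24). Irf4 was at 10.03, 9.24, 9.54 and 9.93 in captured cells and 10.08 and 9.32 in whole granuloma (0.02, SE 0.45). The groups overlapped for both factors. Prdm1, the repressor of the B cell program, differed by 0.15 (SE 0.48), with whole specimens 1 and 3 far apart at 9.02 and 7.11. Sdc1, which encodes the surface marker CD138, differed by 0.54 (SE 0.31, adjusted p = 0.167). Tnfrsf13b, the receptor TACI, differed by -0.27 (SE 0.43). Xbp1, Irf4, Prdm1 and Tnfrsf13b changed sign in some of the alternative fits.

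The 4 plasma cell genes that rose were Cxcr4, Eaf2, Slamf7 and Fkbp11. Slamf7, a surface receptor of plasma cells, was at 7.36, 7.81, 7.63 and 6.85 in captured cells and 6.01 and 5.83 in whole granuloma, 2.81-fold higher (log2 difference 1.49, SE 0.35, adjusted p = 0.00113). Cxcr4, the chemokine receptor that homes plasma cells to their niche, was at 9.42, 8.00, 8.74 and 9.76 in captured cells and 7.39 and 7.38 in whole granuloma, 3.08-fold higher (adjusted p = 0.00693). Eaf2, an elongation cofactor, was 2.91-fold higher (adjusted p = 0.03), and Fkbp11, a chaperone of the endoplasmic reticulum, 2.68-fold higher (adjusted p = 0.0285). Slamf7 alone of the 4 passed in each fit that left out a specimen, so 1 gene was called without whole specimen 3; without whole specimen 1, and also without captured specimen 8, 2 were called. With the control difference as a covariate 2 of the 4 passed, Cxcr4 and Slamf7, and on the deposited values none did. Other settings called more of the 19, and more of all 8592 genes than the 1668 of the main fit. Median centring gave 10 higher, beside 2141 of all genes (52.6% against 24.9%). The main fit gave 21.1% against 19.4%. The groups of study 1 alone gave 9, beside 2388. Quantile normalization over study 1 gave 8, beside 2391. The title date as a block gave 10, beside 2453, but in that fit arrays of the same specimen were not averaged. Arrays without a date, such as whole arrays 3A and 3B, counted there as separate units. Tnfrsf17, the receptor BCMA that supports plasma cell survival, was at 4.80, 6.55, 4.59 and 4.48 in captured cells and 3.74 and 4.07 in whole granuloma (1.17, adjusted p = 0.0992). Specimen 5 stood alone at the top, with 5.16 on array 5-7 and 7.94 on array 5-1. Cd27 and Cd28 were on the array but too low to be tested.

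**Figure D3:**
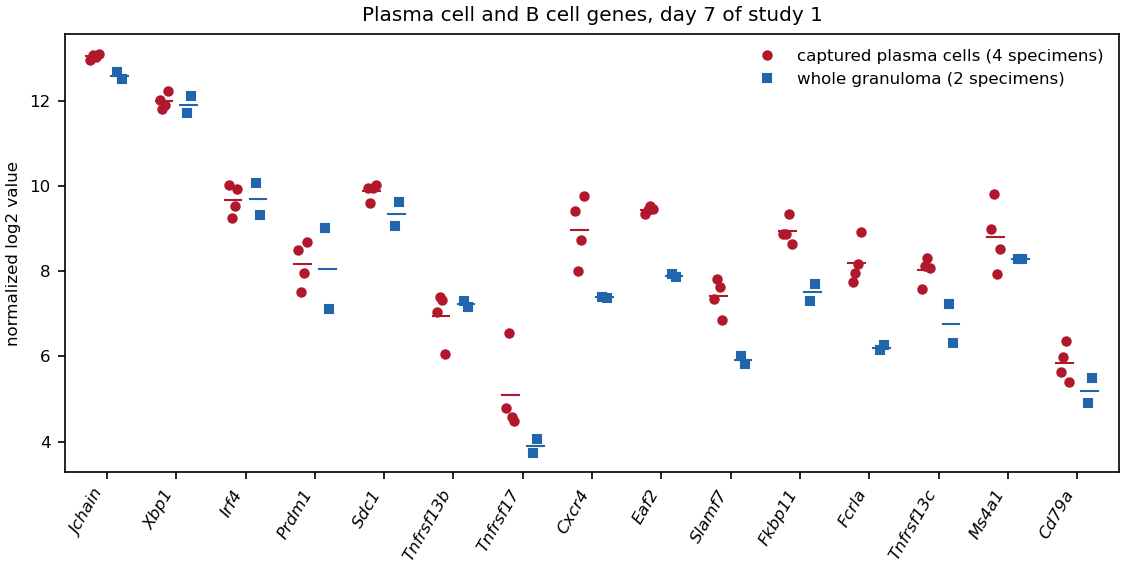
Normalized log2 values of plasma cell and B cell genes in captured plasma cells (red circles, 4 specimens) and whole granuloma (blue squares, 2 specimens), with lines at the means. Jchain, Xbp1 and Irf4 lie close together in both groups, while Cxcr4, Eaf2, Slamf7 and Fkbp11 are separate, by 1.42 to 1.62 in the fit.

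Immunoglobulin genes were abundant in both tissues. Of 17 tested, Igll1, a surrogate light chain component, was higher in captured cells (1.20, adjusted p = 0.0322) and none was lower, with a list median of -0.01. Igll1 kept its call in 2 of the 6 fits that left out a specimen. Ighm, the heavy chain of IgM, was the highest probe set on 7 of the 8 arrays and the second on the other, at 14.57, 14.52, 14.57 and 14.57 in captured cells and 14.57 and 14.57 in whole granuloma, so its normalized values lay at the top of the scale, where no difference can be measured. Igha, the heavy chain of IgA, was at 13.99, 13.80, 12.61 and 13.82 in captured cells and 13.73 and 14.03 in whole granuloma. Igk, a kappa light chain probe set, was at 7.63, 8.59, 8.97 and 12.22 in captured cells and 7.59 and 7.31 in whole granuloma (1.81, adjusted p = 0.0836). Specimen 003 stood well above the other captured specimens in it. Immunoglobulin genes are similar in sequence, and their probe sets can share signal.

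Of 15 B cell genes tested, Fcrla and Tnfrsf13c were higher in captured cells and none was lower (13.3% higher, against 19.4% of all genes), with a median of 0.54 that turned to -0.11 on the deposited values. Fcrla, an intracellular Fc receptor-like protein of B cells, was at 7.74, 7.95, 8.16 and 8.92 in captured cells and 6.15 and 6.27 in whole granuloma, 3.88-fold higher (adjusted p = 0.0121). Tnfrsf13c, the BAFF receptor, was at 7.60, 8.12, 8.31 and 8.07 in captured cells and 7.23 and 6.32 in whole granuloma, 2.37-fold higher (adjusted p = 0.00665). Neither passed without whole specimen 3, and Fcrla did not pass without whole specimen 1 either. Ms4a1 was at 8.99, 9.82, 7.94 and 8.53 in captured cells and 8.29 and 8.28 in whole granuloma (0.54, SE 0.73). Cd79a, a signalling chain of the B cell receptor, differed by 0.63 (SE 0.45). Specimen 5, which holds array 5-1, was the highest captured specimen for Ms4a1; without it 2 B cell genes were called higher and 2 lower. Pax5, the factor that maintains B cell identity, was near the floor in every specimen (3.96 to 4.70) and was not tested.

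Many growth genes rose in captured cells, although Myc itself did not pass. Myc was at 10.74, 10.53, 10.64 and 10.34 in captured cells and 9.65 and 10.22 in whole granuloma, so that every captured specimen was higher, but the difference of 0.63 had an SE of 0.38 (adjusted p = 0.194). Of 38 Myc target and ribosome biogenesis genes, 17 rose (44.7%, against 19.4% of all genes) and none fell, with a median of 0.88. Tfap4, a transcription factor induced by Myc, was at 6.45, 6.13, 6.47 and 6.41 in captured cells and 4.003 and 3.87 in whole granuloma, 5.42-fold higher (adjusted p = 3.49e-11), and its whole granuloma values lay below the 25th percentile of the scale. Ppan, a factor of large ribosomal subunit assembly, was at 9.53, 9.76, 9.93 and 9.74 in captured cells and 7.72 and 7.81 in whole granuloma, 3.9-fold higher (adjusted p = 2.79e-05). Cad, which catalyses the first steps of pyrimidine synthesis, was 3.71-fold higher and Noc4l, a nucleolar ribosome assembly factor, 3.42-fold higher. Another probe set of Cad was at 0.59 and was not called. Not all members moved: Npm1, the most abundant nucleolar protein, differed by 0.44 (SE 0.50), Odc1 of polyamine synthesis by 0.41 (SE 0.47), and Ldha, lactate dehydrogenase, by -0.71 (SE 0.46). Without whole specimen 3 the list held 8 calls.

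Cell cycle genes rose in most cases. Of 37 cell cycle genes tested, 23 rose (62.2%, against 19.4% of all genes) and none fell, with a median of 1.06. Hells, a chromatin remodeller of replicating cells, was at 8.58, 8.58, 8.79 and 8.71 in captured cells and 7.25 and 6.02 in whole granuloma (2.05, SE 0.42, adjusted p = 0.000235). Ccne1, the cyclin of entry into DNA synthesis, was at 8.63, 8.38, 9.14 and 8.46 in captured cells and 6.81 and 6.59 in whole granuloma (1.96, SE 0.33, adjusted p = 2.25e-05). Captured specimens were within 1 unit of each other for both genes. Ube2c, a ubiquitin-conjugating enzyme of mitosis, rose by 1.93 and Birc5, the survivin of the mitotic spindle, by 1.91. Mki67, the most used marker of division, was at 11.44, 11.56, 11.36 and 11.21 in captured cells and 11.72 and 10.84 in whole granuloma, a difference of 0.13 (SE 0.44) with whole specimens on either side of the captured ones. With the control difference as a covariate 14 were called (37.8%, against 16.1% of all genes). Fewer still were called without whole specimen 3.

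Genes of the mitochondrial ribosome, which translates the proteins encoded by mitochondrial DNA, also rose in most cases. Of 73 tested, 44 rose and none fell, with a median of 1.05 (19.4% of all genes rose). Mrpl47 of the large subunit was at 9.58, 9.74, 9.84 and 8.68 in captured cells and 6.02 and 6.84 in whole granuloma, 8.13-fold higher (log2 difference 3.02, SE 0.39, adjusted p = 3.69e-07). Mrpl33 was at 8.57, 8.79, 9.01 and 8.20 in captured cells and 6.14 and 6.13 in whole granuloma, 5.66-fold higher (adjusted p = 1.53e-09). Mrpl34 and Mrpl57 rose by 2.43 and 2.09. Captured specimen 003 was the lowest of the captured specimens in Mrpl47, Mrpl33, Mrpl34 and Mrpl57, yet stayed above both whole specimens in each. Fewer were called without whole specimen 1, with Mrpl57 among those lost. With the control difference as a covariate 28 were called (38.4%, against 16.1% of all genes).

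Respiratory chain and ATP synthase genes rose less widely, with 22 of 75 higher and 2 lower (median 0.66). That was 29.3% higher, against 19.4% of all genes, and 22.7% against 16.1% with the control difference as a covariate. Atp5g1, which encodes a subunit c of the ATP synthase rotor, was at 10.43, 10.12, 10.86 and 9.18 in captured cells and 7.66 and 8.26 in whole granuloma (2.20, adjusted p = 9.07e-05). Ndufa12 of complex I rose by 2.05, with 10.75 in specimen 003 and 11.73 to 11.76 in the other captured specimens. Uqcr10 of complex III rose by 1.80. In the fit without whole specimen 1 the list's share called higher was no longer above that of all genes. Ndufa12 and Uqcr10 lost their call there. As 1 specimen was left out, Ndufa12 ran between 1.37 and 2.78 and Uqcr10 between 1.20 and 2.45. Cytosolic ribosomal protein genes gave 13 of 45 higher (28.9%, against 19.4% of all genes) and none lower, led by Rps27l (1.87), Rpl12 (1.75) and Rps25 (1.74). Their median of 0.51 came to 0.00 with the control difference as a covariate. There 10 were higher (22.2%, against 16.1% of all genes) and 1 lower. In the fit without whole specimen 1 the cytosolic ribosomal share called higher was close to that of all genes. Proteasome genes gave 9 of 45 higher, close to the share of all genes, and 1 lower.

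Genes of the secretory machinery gave counts that turned on the scaling. Of 52 secretory and unfolded protein response genes, 7 rose and 1 fell, below the 19.4% and 19.2% of all genes, with a median of 0.16 that was -0.04 on the deposited values. With each array centred on its median, 19 rose and none fell, against 24.9% of all genes, and the list median was 0.75 against 0.18. Quantile normalization over study 1 alone gave 18 higher and 3 lower, beside 2391 and 2232 of all 8592 genes. The covariate gave 4 higher (7.69%, against 16.1% of all genes). Sdf2l1, an endoplasmic reticulum chaperone cofactor, was at 10.20, 9.94, 10.31 and 10.22 in captured cells and 8.65 and 7.94 in whole granuloma, 3.69-fold higher (adjusted p = 0.0043). Ostc, a subunit of the glycosylation complex, rose by 1.37, Kdelr2, which retrieves escaped chaperones from the Golgi, by 1.30, and Syvn1, a ubiquitin ligase that degrades misfolded proteins, by 1.28. The list held 2 calls for an increase without whole specimen 1, where Ostc, Kdelr2 and Syvn1 did not pass, and Sdf2l1 and Syvn1 did not pass without whole specimen 3. Kdelr2 and Syvn1 did not pass with the covariate (adjusted p = 0.155 and 0.0588).

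Promoter letters were read for 4 lists, to show how many of their members hold a known pattern. Windows of 300 bases (250 before and 50 after the start of a gene) came from RefSeq on build GRCm38.p6, and each pattern was searched on both strands. The pattern CCGGAAG, the core bound by ETS and GABP factors, was in 22 of 64 mitochondrial ribosomal windows (34.4%), against 9.12% of 27025 windows of all genes. It was in 13 of the 40 windows of members that rose. The pattern CACGTG, the E-box bound by Myc, was in 10 of 30 windows of the Myc target list (33.3%), against 7.24% of all windows, but in 2 of the 13 windows of members that rose, Imp4 and Mybbp1a. The endoplasmic reticulum stress element, CCAAT and CCACG with any 9 bases between them, was in 10 of 42 windows of the secretory list. That was 23.8%, against 0.13% of all windows. Among members called in either direction it was in 1 of 6 windows, that of Syvn1, which rose. The CArG box of smooth muscle genes was in 1 of 11 smooth muscle windows (9.09%), that of Myl9, against 1.57% of all windows. A match describes letters in a window and shows no binding, and none of the 5 windows printed holds a match to another of these patterns.

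The windows of Mrpl33 (chr5:31613701-31614000, plus strand) and Mrpl34 (chr8:71464676-71464975, plus strand) are printed for the 2 increases of the mitochondrial ribosome that hold CCGGAAG and are largest, Imp4 (chr1:34439579-34439878, plus strand) for CACGTG, Syvn1 (chr19:6046326-6046625, plus strand) for the stress element, and Myl9 (chr2:156775214-156775513, plus strand) for the CArG box among genes that fell. Each runs 5′ to 3′ along its gene and capitals mark the match. The matches begin 3, 37, 121, 44 and 161 bases before the gene start in the order printed.
Mrpl33: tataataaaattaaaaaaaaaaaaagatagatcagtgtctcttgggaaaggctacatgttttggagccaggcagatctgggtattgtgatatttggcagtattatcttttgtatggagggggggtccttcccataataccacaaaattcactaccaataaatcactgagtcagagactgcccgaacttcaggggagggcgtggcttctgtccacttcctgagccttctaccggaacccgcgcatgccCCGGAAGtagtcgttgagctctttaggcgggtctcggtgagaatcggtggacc
Mrpl34: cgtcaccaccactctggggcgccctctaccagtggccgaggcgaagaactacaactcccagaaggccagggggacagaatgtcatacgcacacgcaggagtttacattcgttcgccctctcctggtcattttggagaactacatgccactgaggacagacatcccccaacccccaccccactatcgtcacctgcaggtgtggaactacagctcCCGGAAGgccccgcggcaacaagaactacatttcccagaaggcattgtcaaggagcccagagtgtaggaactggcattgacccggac
Imp4: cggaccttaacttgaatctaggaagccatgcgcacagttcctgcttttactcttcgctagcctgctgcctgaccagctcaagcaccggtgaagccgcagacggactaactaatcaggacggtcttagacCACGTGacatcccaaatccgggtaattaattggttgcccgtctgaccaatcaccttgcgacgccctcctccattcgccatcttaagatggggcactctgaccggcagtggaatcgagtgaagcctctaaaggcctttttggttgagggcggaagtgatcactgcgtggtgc
Syvn1: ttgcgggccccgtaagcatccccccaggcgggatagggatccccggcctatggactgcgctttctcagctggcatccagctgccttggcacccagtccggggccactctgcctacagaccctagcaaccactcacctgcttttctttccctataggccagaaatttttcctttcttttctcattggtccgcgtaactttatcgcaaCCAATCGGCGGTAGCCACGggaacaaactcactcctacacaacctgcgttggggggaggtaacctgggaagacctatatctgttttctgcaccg
Myl9: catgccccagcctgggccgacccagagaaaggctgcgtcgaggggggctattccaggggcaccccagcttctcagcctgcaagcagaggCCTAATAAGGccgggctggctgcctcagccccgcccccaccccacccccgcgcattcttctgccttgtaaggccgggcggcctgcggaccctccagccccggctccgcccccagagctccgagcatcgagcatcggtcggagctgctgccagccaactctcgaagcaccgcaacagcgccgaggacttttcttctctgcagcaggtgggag

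**Figure D4:**
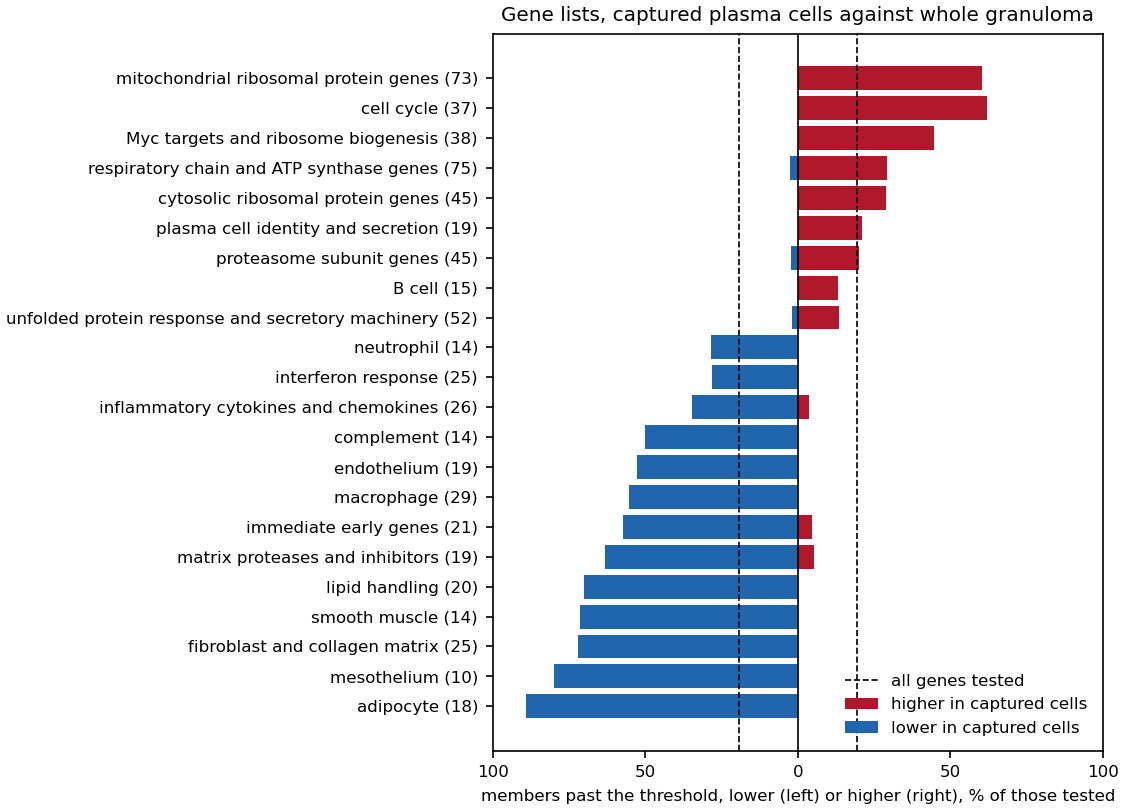
Share of the tested members of each list past an adjusted p of 0.05, higher in captured cells (red, to the right) or lower (blue, to the left), with the number tested in brackets; dashed lines mark all 8592 genes (19.4% higher and 19.2% lower). The adipocyte list reaches 88.9% lower and the cell cycle list 62.2% higher, and the B cell and secretory lists lie inside the dashed line.

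Transcripts of fat and smooth muscle were far lower in captured cells. Of 18 adipocyte genes, 16 fell (88.9%, against 19.2% of all genes) and none rose, with a median of -2.84. Adipoq, the hormone of fat cells, was at 8.52, 9.03, 5.48 and 7.56 in captured cells and 10.79 and 12.40 in whole granuloma, 15.2-fold lower (log2 difference -3.93, SE 1.37, adjusted p = 0.0215). Captured specimen 8 was lowest, and the call was lost without it, without whole specimen 3 or with the control difference as a covariate (-3.37, adjusted p = 0.0629). Scd1 was at 9.54, 9.11, 7.75 and 9.87 in captured cells and 13.95 and 13.81 in whole granuloma, 27.5-fold lower. The list's summed linear signal was 4736 to 14668 in captured cells and 61864 to 71668 in whole granuloma, so fat transcripts were still measured in captured cells. In such bulk samples fewer cells of a type and less RNA per cell cannot be told apart.

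Of 14 smooth muscle genes, 10 fell (71.4%, against 19.2% of all genes) and none rose, with a median of -2.75. Myh11, the smooth muscle myosin, was at 4.35, 4.85, 3.71 and 4.33 in captured cells and 8.83 and 9.16 in whole granuloma, 25.8-fold lower (adjusted p = 0.000187). Actg2, the enteric smooth muscle actin, was at 3.46, 3.37, 3.41 and 3.16 in captured cells, below the 25th percentile, and at 6.58 and 9.69 in whole granuloma. Myl9, a myosin light chain whose promoter window is printed above, was at 4.20, 4.95, 4.04 and 4.43 in captured cells and 7.64 and 9.69 in whole granuloma, 19.7-fold lower (adjusted p = 0.00149). For Actg2 and Myl9 whole specimen 3 was the higher by more than 2 units, and neither passed without it. Without whole specimen 3, 4 smooth muscle and 6 adipocyte genes were called.

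Genes of lining and support cells were lower as well. Of 10 mesothelial genes 8 fell, of 25 fibroblast and collagen genes 18 fell, and of 19 endothelial genes 10 fell. These were 80%, 72% and 52.6%, against 19.2% of all genes. The list medians were -1.72, -1.55 and -0.87, and none of these lists had a member that rose. Upk3b, a membrane protein of mesothelium, was at 4.96, 4.28, 5.30 and 4.92 in captured cells and 8.17 and 9.45 in whole granuloma, 15.6-fold lower (adjusted p = 8.98e-06), and Krt19, an epithelial keratin, was 10.1-fold lower. Vwf, the clotting factor of endothelium, was at 5.73, 6.07, 4.70 and 6.33 in captured cells and 9.59 and 9.41 in whole granuloma, 13.8-fold lower (adjusted p = 0.000206). Bgn, a proteoglycan of matrix, was 6.45-fold lower, Lyve1 of lymphatic endothelium 6.07-fold lower and Fbln2, a matrix glycoprotein, 4.98-fold lower. Matrix proteases and their inhibitors gave 12 lower and 1 higher of 19 (63.2% and 5.26%). Mmp12, Mmp14, Adamts5 and Mmp2 were lower by 2.51, 2.40, 2.24 and 2.10. Another probe set of Adamts5 was at -0.77 and was not called. In the fit without whole specimen 3 the mesothelial, fibroblast and protease lists held fewer calls for a decrease. The endothelial share then came close to that of all genes. Without whole specimen 1 the protease list held 7, and without captured specimen 8 the endothelial list held 6.

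Macrophage transcripts were lower in captured cells and still abundant there. Of 29 tested, 16 fell (55.2%, against 19.2% of all genes) and none rose. The list median was -1.48, against 0.05 over all genes. Arg1 was at 9.35, 7.65, 9.89 and 9.21 in captured cells and 12.44 and 12.26 in whole granuloma, 9.86-fold lower (adjusted p = 0.0021). Cd14, the co-receptor for bacterial lipopolysaccharide, was 5.5-fold lower, Fcgr1, the high affinity IgG receptor, 5.15-fold lower and Vsig4, a complement receptor of resident macrophages, 4.22-fold lower. Vsig4 ran between -2.89 and -1.21 as 1 specimen was left out, and did not pass without captured specimen 5 or without whole specimen 3. Cd68, a lysosomal marker of macrophages, was at 9.61, 9.05, 9.25 and 8.94 in captured cells and 9.74 and 11.19 in whole granuloma (-1.25, adjusted p = 0.0792). The summed linear signal of the list was 31490 to 44527 in captured cells and 72744 to 90784 in whole granuloma, a smaller gap than for fat or muscle. Its part in the other differences was not tested. Without whole specimen 3, 5 macrophage genes were called.

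Genes of lipid uptake and efflux fell in 14 of 20 cases (70%, against 19.2% of all genes) and rose in none (median -1.51). Pparg, the nuclear receptor of lipid storage, was 7.52-fold lower, the scavenger receptor Cd36 6.94-fold lower, Apoe, which carries cholesterol out of macrophages, 6.32-fold lower and the lipase Lpl 4.68-fold lower. Lpl was still at 11.46, 11.66, 10.18 and 10.90 in captured cells, against 13.45 and 13.16 in whole granuloma. Complement gave 7 of 14 lower (50%, median -1.10). Among them were C1s1 and Cfb, proteases of the classical and alternative pathways, 6.99-fold and 6.92-fold lower. Lpl did not pass without whole specimen 1. The 2 lists held 7 and 4 calls without whole specimen 3, and the lipid list held 9 without whole specimen 1.

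Inflammatory and immediate early genes were lower on average, and the captured specimens differed widely among themselves. Of 21 immediate early genes, which respond within minutes to stress and growth signals, 12 fell and 1 rose (median -1.22). That was 57.1% and 4.76%, against 19.2% and 19.4% of all genes. Fos was at 10.84, 7.01, 7.29 and 11.003 in captured cells and 11.70 and 12.63 in whole granuloma, 8.22-fold lower (log2 difference -3.04, SE 0.65, adjusted p = 0.000364). Dusp1, a phosphatase that ends stress kinase signals, was at 10.24, 7.15, 6.83 and 10.39 in captured cells and 11.01 and 12.01 in whole granuloma, 6.88-fold lower (adjusted p = 0.000642). Specimens 3 and 003 lay within 2 units of whole granuloma in both genes and specimens 5 and 8 more than 3 units below it. Egr1, a zinc finger factor of the same class, was at 9.98, 8.44, 8.18 and 10.69 in captured cells and 11.80 and 11.89 in whole granuloma.

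Specimens 5 and 8 were also the lowest for several cytokines. Of 26 inflammatory cytokine and chemokine genes 9 fell and 1 rose (34.6% and 3.85%, against 19.2% and 19.4% of all genes). Il6, the cytokine on which pristane plasma cell tumors depend, was at 8.15, 3.84, 3.79 and 7.17 in captured cells and 6.72 and 9.21 in whole granuloma, 4.38-fold lower (adjusted p = 0.0177). The groups overlapped, and the call was lost without captured specimen 5, without captured specimen 8, without whole specimen 3 or with the covariate (-1.83, adjusted p = 0.0556). Cxcl2, a chemokine that draws neutrophils, was at 7.58, 4.40, 5.84 and 7.83 in captured cells and 9.29 and 9.70 in whole granuloma (-3.02, adjusted p = 0.00937). Ptgs2, the inducible cyclooxygenase, was at 5.95, 3.49, 3.41 and 6.91 in captured cells and 7.23 and 7.98 in whole granuloma (-2.62, adjusted p = 0.00246), while another of its probe sets was called in the opposite direction (0.51). Specimens 5 and 8 were at the floor of the scale for Il6 and Ptgs2. Il1b fell by 2.82, with captured values of 5.37 to 6.77 and whole granuloma values of 8.30 and 9.43. Cxcl2 did not pass with the covariate either (adjusted p = 0.0673). Cxcl2 and Ptgs2 also lost their call without whole specimen 3. In that fit the cytokine share was no longer above that of all genes, and fewer immediate early genes were called lower.

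On the receiving side of IL-6, 8 of 23 genes of IL-6 and STAT3 signalling fell and 2 rose. The shares were 34.8% and 8.7%, against 19.2% and 19.4% of all genes. Il6st, the shared signal chain gp130, was at 9.28, 9.29, 8.59 and 8.99 in captured cells and 10.73 and 10.51 in whole granuloma, 2.96-fold lower (adjusted p = 0.000178). Jak1, the kinase bound to it, was 3-fold lower and Junb, a target of STAT3, 2.93-fold lower. Il6ra, the specific receptor chain, leaned the other way, at 6.22, 7.18, 6.69 and 5.88 in captured cells and 5.71 and 5.56 in whole granuloma (0.84, adjusted p = 0.124). NF-kB regulators gave 7 of 17 lower and 2 higher (41.2% and 11.8%), with Nfkbiz (-1.61), Nfkbie (-1.33) and Relb (-1.27) among those that fell. Interferon response genes gave 7 of 25 lower (28%, against 19.2% of all genes) and none higher. They were led by Rsad2 (-2.34), an antiviral enzyme, and Oasl2 (-2.23). In the fit without whole specimen 3 the 3 lists lost most of their calls for a decrease. The NF-kB and interferon shares were then no longer above that of all genes. Without captured specimen 8 the IL-6 list held 5.

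Digestive enzyme transcripts of the pancreas were high in 1 whole specimen. Of 13 acinar genes 2 fell and none rose, below the 19.2% of all genes that fell. Cpb1, a carboxypeptidase of pancreatic juice, was at 3.63, 3.68, 4.03 and 3.49 in captured cells, below the 25th percentile, and at 4.95 and 8.56 in whole granuloma (-3.11, SE 1.20, adjusted p = 0.0376). Cpa1, a related enzyme, was at 4.05, 4.003, 4.08 and 3.92 in captured cells and 5.03 and 8.14 in whole granuloma (-2.62, adjusted p = 0.0428). Whole specimen 3 was the higher of the 2 in both genes, and no acinar gene was called without it. Cpb1 kept its call in 2 and Cpa1 in 1 of the 6 fits that left out a specimen, and neither passed with median centring (adjusted p = 0.0699 and 0.0763).

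Study 2 repeated the day 7 comparison in an independent cohort with 3 captured specimens (6 arrays) and 3 whole granuloma specimens, and the difference between the studies was tested as an interaction. Of the 1668 genes higher in captured cells of study 1, 736 were also called higher in study 2 (44.1% of the study 1 calls and 44.0% of the study 2 calls), and 79 were called lower there. Of the 1651 lower genes, 839 were lower in both (50.8% and 48.2%) and 49 were called higher in study 2. In study 2, 19.4% of genes tested were called higher and 20.3% lower, 39.7% in all. The size of the difference itself differed for 652 genes in the upward and 494 in the downward direction (7.59% and 5.75% of genes tested). The control difference on whole granuloma arrays was 3.57 ± 0.20 in study 1 (SD, n = 3 arrays) and 1.72 ± 0.04 in study 2 (SD, n = 3 arrays), and with it as a covariate the counts were 990 and 463. Without whole specimen 3 of study 1 they were 273 and 189, and without whole specimen 1 they were 389 and 305. On the deposited values they were 4725 and 53.

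The adipocyte list had a median of -2.84 in study 1 and -3.07 in study 2, and the plasma cell list 0.54 and 0.43. Lists of growth genes lay higher in study 1. Of 73 mitochondrial ribosomal genes 17 had a larger difference in study 1 and none a smaller one, and the list median was 1.05 in study 1 and 0.24 in study 2. Of 38 Myc target genes 10 were larger and none smaller in study 1. Tfap4 averaged 6.37 ± 0.16 in captured cells of study 1 (SD, n = 4) and 3.94 ± 0.10 in whole granuloma (SD, n = 2), a difference of 2.44, while in study 2 it averaged 5.66 ± 0.10 in captured cells and 5.12 ± 0.36 in whole granuloma (SD, n = 3 each), a difference of 0.55. The change between studies was 1.89 (SE 0.27, adjusted p = 1.13e-05). Ppan differed by 1.96 in study 1 and 0.08 in study 2 (1.88, SE 0.45, adjusted p = 0.0047). For Ppan the whole granuloma means were 7.76 in study 1 and 7.73 in study 2, and captured cells were at 9.74 and 7.81.

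Other genes also differed between the studies. Alyref averaged 8.99 ± 0.20 in captured cells of study 1 (SD, n = 4) and 6.07 ± 0.61 in whole granuloma (SD, n = 2), and in study 2 it averaged 7.70 ± 0.22 in captured cells and 8.28 ± 0.64 in whole granuloma (SD, n = 3 each). The study 2 difference did not pass by itself (-0.58, adjusted p = 0.127), and the change between studies was 3.51 (SE 0.46, adjusted p = 3.03e-06). Hnrnpl, a splicing regulator, was called in opposite directions, with 1.85 in study 1 and -1.67 in study 2 (adjusted p of the change 8.19e-07). Eif2ak2, the interferon-induced kinase PKR, differed by -1.93 in study 1 and 1.74 in study 2, and another of its probe sets was called upwards in study 1 (0.95). The chromatin remodeller Atrx differed by -1.28 in study 1 (adjusted p = 0.12) and 3.09 in study 2, and its other probe sets in study 1 ran between -0.82 and 0.59. Fas, the death receptor, was 6.81-fold lower in captured cells of study 1 (adjusted p = 1.11e-10) and differed by -0.33 in study 2 (adjusted p = 0.223).

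Pancreas and muscle genes were among the largest changes between the studies. Acinar genes had a median of -1.33 in study 1 and 2.30 in study 2, where 9 of 13 were called higher in captured cells, and 7 had a lower difference in study 1. In each of the 13 genes 1 of the 3 captured specimens of study 2 lay far above the other 2. Cpb1 averaged 3.71 ± 0.23 in captured cells of study 1 (SD, n = 4) and 6.76 ± 2.55 in whole granuloma (SD, n = 2), and 6.23 ± 4.15 in captured cells of study 2 and 3.77 ± 0.11 in whole granuloma (SD, n = 3 each). The spread lay in whole tissue in study 1 and in captured cells in study 2. Zg16, a zymogen granule protein, changed by -5.27 between the studies (adjusted p = 0.023). Tac1, the substance P precursor of nerve cells, fell by 2.31 in study 1 and by 6.36 in study 2 (adjusted p of the change 0.00569). Pdlim3, a muscle adaptor, differed by -2.005 in study 1 (adjusted p = 0.0578) and -6.13 in study 2. Captured cells were near the floor in both studies for Tac1 and Pdlim3, and whole granuloma was higher in study 2, at 9.54 ± 0.90 and 9.46 ± 0.81 (SD, n = 3), than in study 1, at 5.45 ± 0.33 and 5.78 ± 0.17 (SD, n = 2).

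**Figure D5:**
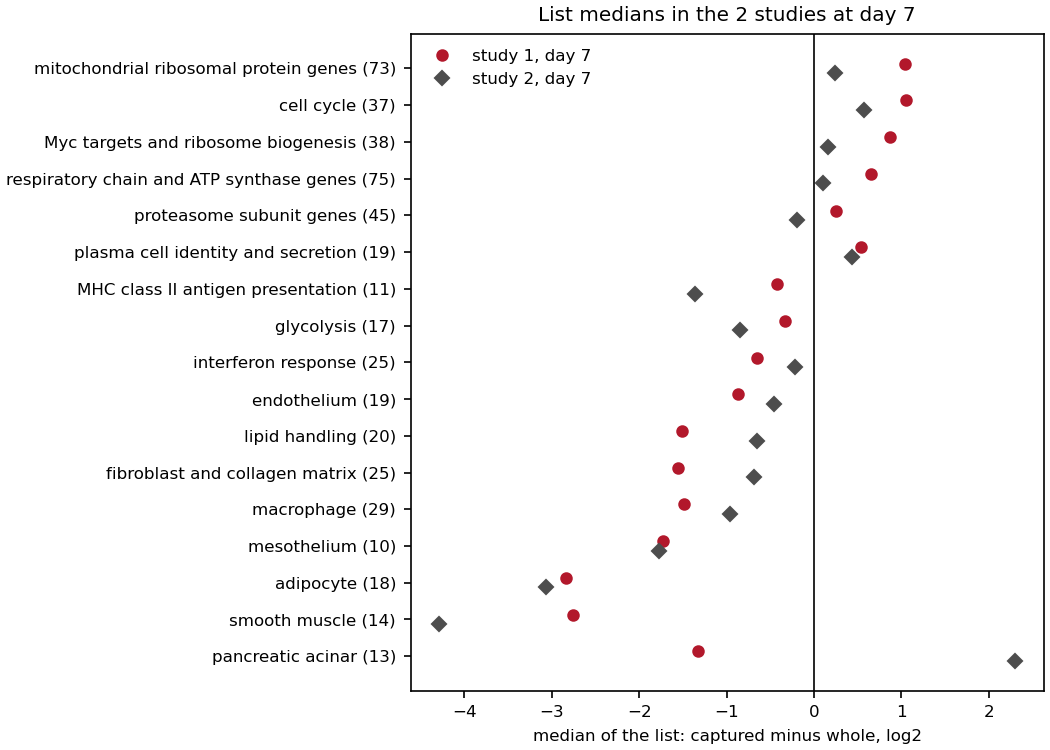
Median log2 difference, captured cells minus whole granuloma, of each list (number of genes tested in brackets) at day 7 in study 1 (red circles) and study 2 (grey diamonds). The acinar list lies at -1.33 in study 1 and 2.30 in study 2, and the mitochondrial ribosomal list at 1.05 and 0.24.

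Day 17 of study 1, from other arrays of the same cohort, had 1275 genes higher in captured cells and 1300 lower (14.8% and 15.1% of genes tested, 30% in all). Of the 1668 genes higher at day 7, 1047 were also called higher at day 17 (62.8% of the day 7 calls and 82.1% of the day 17 calls), and 1103 of the 1651 lower genes were called lower (66.8% and 84.8%). No gene was called in opposite directions. No difference between the days passed the limma test among 8592 genes (0%), with 121 genes at an unadjusted p below 0.05, and day 17 has 2 whole granuloma specimens as well. Cell cycle genes had a median of 1.06 at day 7 and 0.59 at day 17, and mitochondrial ribosomal genes 1.05 and 0.52, and these shifts were not tested as lists. Fcrla differed by 1.96 at day 7 and 0.08 at day 17. Lcn2, a neutrophil granule protein, fell by 2.00 at day 7 and by 3.07 at day 17.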

How the data were processed

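Both kinds of RNA were amplified linearly in 2 rounds before hybridization to mouse arrays, as the labels' protocols state. The deposited values are on a log2 scale and cover 22690 probe sets on 82 arrays; the submitters' processing notes name RMA and Partek, and no version is given in the sources used here. The platform's gene table gave 1 symbol for 20380 probe sets, several for 691 and none for 1555, and 64 were controls. A gene took its probe set with the highest mean, and 8592 of 12393 genes lay above the array median in at least 3 specimen averages and were tested.

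Values were quantile-normalized over all arrays, arrays sharing a specimen number, tissue, study and day were averaged (53 averages in 19 groups), and all groups entered 1 fit with limma 3.58.1 in R 4.3.3, with specimen as a random block (correlation 0.112, 34 residual degrees of freedom). Captured cells and whole granuloma of day 7 share only number 3, which makes a single pair. Because of the block, fitted differences depart slightly from differences of means. Adjusted p is by Benjamini-Hochberg over all genes tested, with a threshold of 0.05. The number of arrays limits the precision. The test was checked on simulated data.

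Named genes were the 12 largest increases and 12 largest decreases with non-overlapping groups (immunoglobulin genes apart), the called members of a list that changed most (at most 4 a list), fixed plasma cell and tissue markers, and the 4 largest changes each way against study 2. Members and lists were chosen with earlier results of these data known. Alternatives were the deposited values, median centring, other normalization sets, covariate, block, filters, probe set means and leaving out each specimen.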

Additional observations from a re-analysis of the deposited data

Results flagged for a closer look

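Among 150 named genes, 1 captured specimen of day 7 stood far from the other 3 in 5 genes; a gap of this size is met by chance in about 1 of 20 groups. The values were 8.23 for Birc5 and 10.8 for Ndufa12 in specimen 003, 4.85 for Cd55 and 7.51 for Hnrnpl in specimen 8, and 6.55 for Tnfrsf17 in specimen 5, which holds the B cell-rich array 5-1.

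The captured minus whole difference was not the same in study 1 and study 2, by the interaction test, for 35 of 150 named genes, against 13.3% of all genes tested; some were named for being the largest such changes. Study 1 lay above study 2, on the log2 scale, for Pdlim3 (4.12), Tac1 (4.05), Pcp4 (3.67), Hnrnpl (3.51), Alyref (3.51), Epcam (3.05), Sdf2l1 (2.80), Eny2 (2.66), Zcchc10 (2.50), Snrnp40 (2.39), Mrpl34 (2.39) and Pet100 (2.18). The same held for Bid (2.01), Rab26os (1.94), Psmg3 (1.93), Atp5g2 (1.93), Tfap4 (1.89), Ppan (1.88), 2010204K13Rik (1.74), Psmd3 (1.65), Ccne1 (1.42) and Mrpl33 (1.25).

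Study 1 lay below study 2 for Cpb1 (-5.57), Zg16 (-5.27), Cpa1 (-4.92), Atrx (-4.37), Eif2ak2 (-3.67), Mmd (-2.68), Rsad2 (-2.61) and Igf1 (-2.53). Fas (-2.43), Fgf1 (-2.37), Adamts5 (-2.22), Nfkbiz (-1.78) and Flt4 (-1.76) were lower in study 1 too. Study 1 and study 2 are separate cohorts and differ in the control difference of their whole granuloma arrays, whose part in these changes was not tested gene by gene.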

How the results depend on the processing

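Main limits are the 2 whole granuloma specimens, the amplification of shortened RNA and the scaling; the cause of each change below was not tested. On the deposited values 381 genes were higher and 3902 lower in captured cells, and against study 2 the counts were 4725 and 53. With the control difference as a covariate, 990 genes lay higher against study 2. Leaving out 1 specimen gave 865 to 1595 genes higher and 841 to 1583 lower, 273 to 596 and 189 to 464 against study 2, and 0 to 1 lower against day 17 (without whole specimen 3), the lone whole specimen being assumed to vary like other groups. Without the replicate block 1621 genes were higher and 1609 lower; captured and whole specimens share only number 3, a single pair, so no paired test was possible. Of 132 named genes that passed, 18 were lost on the deposited values, 7 with median centring, 10 with the covariate, 18 without whole specimen 1 and 46 without whole specimen 3, and no called gene changed sign in these settings. Genes that changed sign had not passed. On the deposited values these were Cd79a (-0.078), Irf4 (-0.43), Mki67 (-0.045), Ms4a1 (-0.11), Prdm1 (-0.54) and Xbp1 (-0.012). With the covariate they were Irf4 (-0.15), Mki67 (-0.18) and Xbp1 (-0.091). Irf4 was also at -0.0104 with the day 7 specimens alone and without the block, at -0.064 with specimen 5 split and at -0.073 with 003 joined to 3, and Xbp1 at -0.011 with the title date as block. Leaving out specimens moved Cd74 between -1.57 and 0.16, Irf4 between -0.39 and 0.41, Mki67 between -0.32 and 0.55, Prdm1 between -0.85 and 1.09, Tnfrsf13b between -0.41 and 0.0145 and Xbp1 between -0.11 and 0.27.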

Other observations

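Apoptosis and cell cycle arrest genes held calls in both directions, as did all genes tested. Of 13 Bcl2 family genes 3 were higher and 5 lower in captured cells (23.1% and 38.5%, against 19.4% and 19.2% of all genes). Of 19 p53 response genes and Cdk inhibitors 5 were higher and 4 lower (26.3% and 21.1%), not far from the share of all genes. Bbc3, the BH3-only protein PUMA, rose by 1.52 and Bid, another BH3-only protein, by 1.37 on the probe set used. Another probe set of Bid was at -0.43 and was not called. Bnip3, a mitophagy receptor, fell by 2.66 and Bcl2l2, a survival protein, by 1.52 on the probe set used. The other 3 probe sets of Bcl2l2 ran between -0.19 and -0.02, and none was called. Cdkn2a, the locus of the p16 and ARF inhibitors, rose by 1.14, a call that was lost without whole specimen 3.

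Of 17 glycolysis genes 2 fell at day 7 of study 1 (11.8%, against 19.2% of all genes) and none rose. In study 2, 12 fell (70.6%, against 20.3% of all genes). By the interaction test 2 members lay higher in study 1 (11.8%, against 7.59% of all genes) and none lower. Of 21 niche and survival genes 3 rose and 3 fell (14.3% each way, below the 19.4% and 19.2% of all genes). Itgb1, the beta 1 integrin, fell by 2.38, was at -3.01 to -1.80 as 1 specimen was left out, did not pass without whole specimen 1, and was at -0.89 over the mean of its probe sets. Igf1, a growth factor, fell by 1.94, while Cd80, a costimulatory ligand, rose by 1.08 (adjusted p = 0.00137). Malat1, a nuclear noncoding RNA, was at 12.94, 13.77, 12.92 and 12.05 in captured cells and 10.82 and 10.79 in whole granuloma (2.12, adjusted p = 0.00529), a call that was lost without whole specimen 3.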
